A study of Mus musculus with 17 samples.

Results

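Synaptotagmins are membrane-associated proteins with a pair of C2 domains, most of them anchored in vesicle membranes. In the calcium-binding members the C2 domains attach to phospholipids and SNARE proteins when calcium rises, which couples calcium entry to vesicle fusion. Other members have lost residues that hold calcium and act in vesicle trafficking without it. In the pancreatic β cell, calcium that enters after glucose metabolism triggers the fusion of insulin granules, and Syt7 is known as a calcium sensor of that step. The transcripts of 10 synaptotagmin genes were followed here: the calcium-binding Syt5, Syt7, Syt9 and Syt10, and Syt4, Syt11, Syt13, Syt14, Syt16 and Syt17, which are known as calcium-insensitive or atypical members. They were chosen by symbol among 54456 gene symbols, and all 10 were among the 22733 genes that passed the filter on low counts.

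RNA was sequenced from β cells of male mice, sorted for the red reporter tdTomato out of islets that had been cultured for 3 days in 2.8 or 16.7 mM glucose. The control cells came from tdTomato mice (WT in the labels), and per the study's methods they too carry RIP-Cre and the Cre-inducible tdTomato reporter. The Pcbp2βKO cells came from RIPCre+;Pcbp2Fl/Fl;Tdtomato mice, in which Cre driven by the rat insulin promoter deletes Pcbp2, the gene of an RNA-binding protein that recognizes C-rich RNA. There were 3 control samples at 2.8 mM, 4 control samples at 16.7 mM, and 5 Pcbp2βKO samples at each glucose concentration. The labels do not say whether replicates were separate animals, so the p-values measure only the spread between these samples. In sorted bulk cells, less of a transcript per cell cannot be told apart from fewer cells that make it.

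Libraries held 47385513 to 82419400 estimated read pairs. CPM, the read count scaled to library size and by TMM factors, which set the bulk of genes equal between samples, is used for comparisons between samples. TPM, the share of transcripts corrected for length, is used for comparisons between genes. Pcbp2 itself was measured at 50.7 to 73.4 CPM in control and 15.5 to 19.2 CPM in Pcbp2βKO samples at 2.8 mM, and at 35.0 to 45.4 against 5.81 to 10.03 CPM at 16.7 mM, so every library matched its labelled genotype. β cell identity genes were abundant in all samples, while endothelial markers (2 of 5 tested) summed to at most 1.12 CPM. Over all samples ductal markers (5 of 5 tested) summed to 384 to 1184 CPM and neuron and glia markers (4 of 5 tested) to 39.9 to 70.0 CPM. Summed macrophage markers (5 of 5 tested) were 27.5 to 157 CPM in Pcbp2βKO cells at 2.8 mM and 1.71 to 13.9 CPM at 16.7 mM, against 18.8 to 68.9 and 2.44 to 15.5 CPM in control cells. Summed α cell markers (5 of 6 tested) were 1570 to 9438 CPM in Pcbp2βKO cells at 2.8 mM and 691 to 2623 CPM in control cells at 2.8 mM. At 2.8 mM the summed δ cell markers (5 of 5 tested), at 481 to 1320 CPM in Pcbp2βKO and 251 to 392 CPM in control cells, and PP cell markers (3 of 3 tested), at 1433 to 7426 and 1112 to 1208 CPM, were higher in every Pcbp2βKO sample. The 10 β cell identity genes summed to 67229 to 97404 CPM in Pcbp2βKO and 118516 to 122766 CPM in control cells at 2.8 mM, also without overlap. Of these 10 genes only Ins1 was called lower at 2.8 mM. Their median log2 fold change was -0.27, and 4 of the 10 values were positive. At 16.7 mM the sums of the identity genes and of the α, δ and PP cell markers overlapped between genotypes. The part of these other cell types in the results was not tested. Control replicate 4 and Pcbp2βKO replicates 4 and 5 at 16.7 mM stood apart from the rest of their groups in earlier results of these data. Values of Syt5, Syt9 and Syt17 are also given without these samples, as is the count of members between genotypes at 16.7 mM. The other members are not given without all 3, and the lists of exocytosis genes are given with all samples only.

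The 10 transcripts spanned a wide range of levels in control cells. Syt13, an atypical member with a known role in endocrine cell formation in the pancreas, was the most abundant at 207 ± 14.5 TPM (SD, n = 3) at 2.8 mM. It supplied 69.1 ± 3.57% of the summed TPM of the 10 genes, which was 299.9 ± 5.67. Syt4, a calcium-insensitive member found on secretory granules and linked to β cell maturation, followed at 46.8 ± 8.31 TPM, and no sample of Syt4 reached the lowest sample of Syt13. Syt5 at 15.5 ± 0.705 TPM and Syt11 at 13.8 ± 2.32 TPM overlapped between samples. Syt7 at 8.73 ± 0.373 TPM lay below both and above Syt14 at 3.23 ± 0.437 TPM without overlap. The 4 lowest, Syt10, Syt9, Syt17 and Syt16, had mean levels of 1.76, 1.11, 0.795 and 0.750 TPM, and each overlapped the next in the order. At 16.7 mM Syt5 followed Syt13 at 57.6 ± 19.0 TPM (n = 4) and Syt4 came next at 35.9 ± 9.93 TPM, with overlapping samples.

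**Figure D1:**
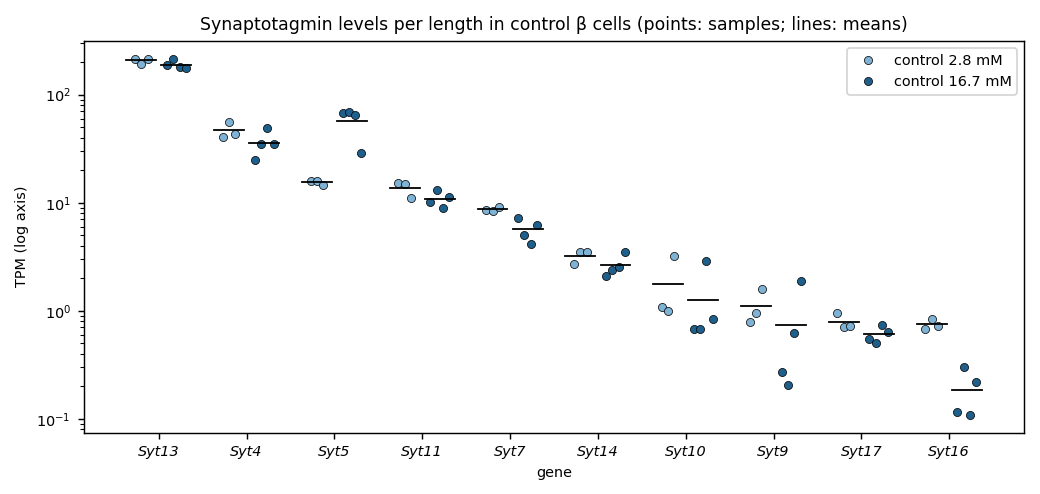
Level of each synaptotagmin transcript in the 7 control samples, in TPM on a log axis, with points for samples (light, 2.8 mM; dark, 16.7 mM) and lines for group means. Syt13 lies above all other members in every sample, and Syt5 moves above Syt4 in the order of the means at 16.7 mM.

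Of the 7 other synaptotagmins in the mouse files, 6 passed the low-count filter. Syt3 was the highest of them at 4.37 ± 0.969 TPM in control cells at 2.8 mM. Syt1 and Syt2, the main calcium sensors of fast neurotransmitter release, were at 0.339 ± 0.199 and 1.14 ± 0.727 TPM.

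The largest difference between genotypes within the family was in Syt10, known as a calcium sensor for vesicles that carry insulin-like growth factor in neurons of the olfactory bulb. In control cells Syt10 was measured at 1.99, 1.86 and 5.43 CPM at 2.8 mM. At 16.7 mM the control samples held 2.64, 2.26, 8.57 and 2.04 CPM. In Pcbp2βKO cells it was near absent, with no read pair in 3 of 5 samples at 2.8 mM and in 4 of 5 at 16.7 mM, and groups did not overlap at either concentration. Pooled over samples, 3 Syt10 read pairs in Pcbp2βKO cells stood against 812 in control cells at 2.8 mM, which was 0.221% of the control level, or 452-fold lower (95% exact interval 154 to 2198). At 16.7 mM 1 read pair stood against 905, a ratio of 1315-fold (interval 235 to 51979). These intervals cover counting error only, and single libraries moved the ratios. At 2.8 mM the ratio was 274-fold without control replicate 3, which held 496 of the 812 read pairs, and 1174-fold without Pcbp2βKO replicate 4, which held 2 of the 3. At 16.7 mM it was 771-fold without control replicate 3, which held 510 of the 905. Without Pcbp2βKO replicate 2 no read pair was left at 16.7 mM, and the level was at least 357-fold lower, taking a floor of 3 read pairs over the group. The fitted log2 fold change was -8.44 (SE 0.79, edgeR quasi-likelihood adjusted p = 5.1e-06) at 2.8 mM and -9.70 (SE 0.87, adjusted p = 2.7e-06) at 16.7 mM, values whose size depends on the prior count. The Pcbp2 transcript in the same Pcbp2βKO samples was lowered but still measured in every sample.

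**Figure D2:**
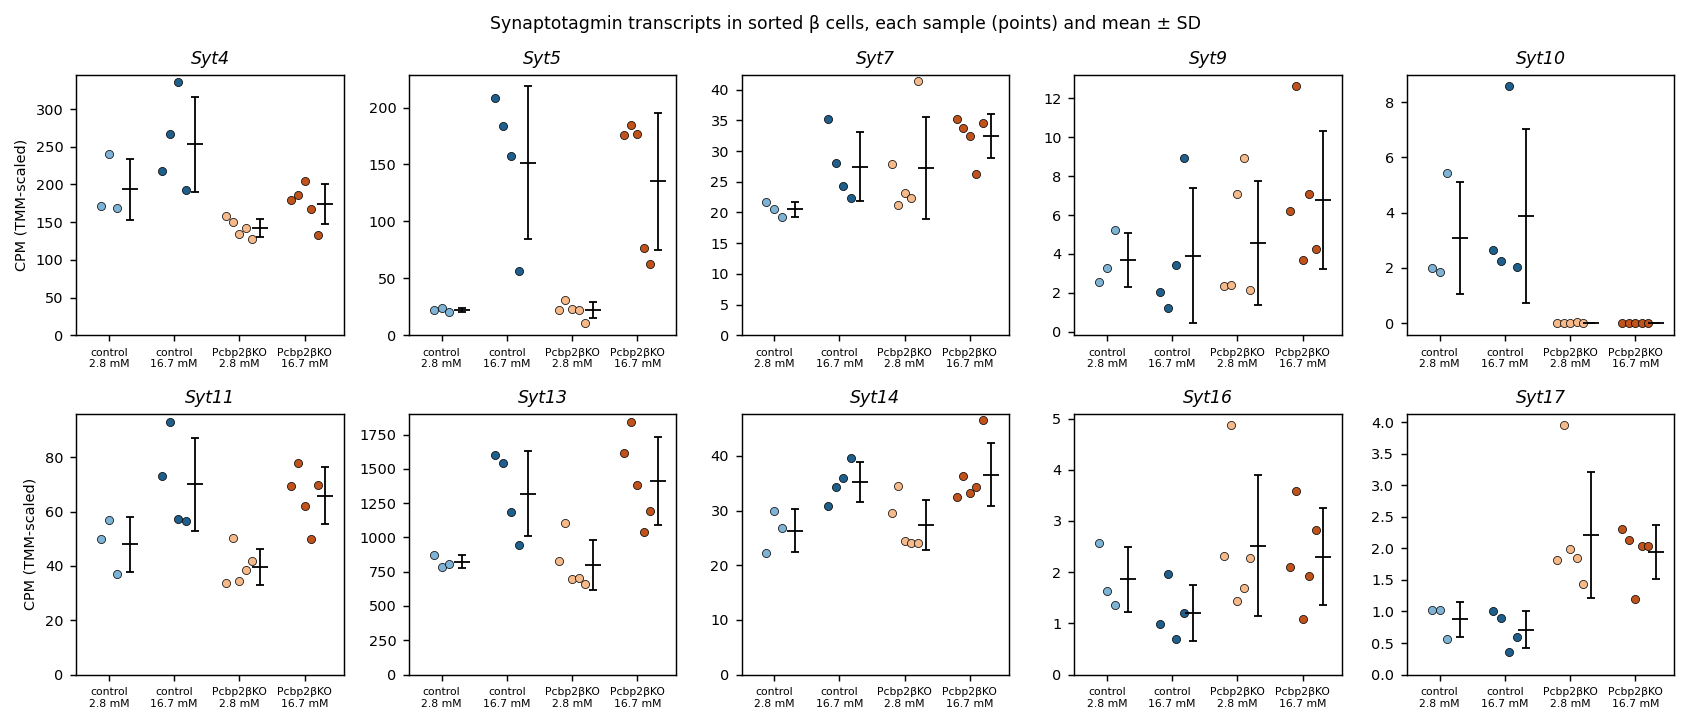
TMM-scaled CPM of each of the 10 synaptotagmin transcripts in all 17 samples on linear axes, with points for samples in the order of their replicate numbers and a bar for the mean ± SD of each group. Syt10 lies at or near 0 in all 10 Pcbp2βKO samples, Syt17 lies higher in Pcbp2βKO than in control samples, and Syt5 is high at 16.7 mM in both genotypes.

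Syt10 (ENSMUSG00000063260) lies at chr15:89661213-89726172 on the minus strand of GRCm39 and Pcbp2 (ENSMUSG00000056851) at chr15:102378928-102408805 on the plus strand, 12652756 bases apart. Between them 172 genes were tested, of which 4 (2.33%) passed the thresholds between genotypes at 2.8 mM and 3 (1.74%) at 16.7 mM. Over all genes tested these shares were 2.05% and 1.71%. Over the whole of chromosome 15, with Syt10 and Pcbp2 included, 21 of 826 genes (2.54%) passed at 2.8 mM and 22 (2.66%) at 16.7 mM. Whether the position on the same chromosome as Pcbp2 has a part in the Syt10 difference was not tested. In control cells replicate 3 had the highest Syt10 level at both concentrations.

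The genes whose pattern over the 17 samples was closest to that of Syt10 were Gm13716, Syndig1 and Cldn8. The measure was the mean absolute difference of z-scored log2 CPM, which was 0.0848, 0.140 and 0.143 for them and had a median of 1.13 over 13061 genes with a mean of at least 1 CPM. Cldn8, which encodes a tight junction protein, was at 33.2 to 163 CPM in control cells at 2.8 mM and 69.5 to 418 CPM at 16.7 mM, and at most 0.225 CPM in any Pcbp2βKO sample. Syndig1, a gene for a synaptic membrane protein, was at 0.838 to 7.51 CPM in control and at most 0.0530 CPM in Pcbp2βKO samples. In all 3 genes replicate 3 was the highest control sample at both concentrations, as it was for Syt10. The genes were picked for closeness to Syt10 over these same samples, so this likeness is not a separate result.

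**Figure D3:**
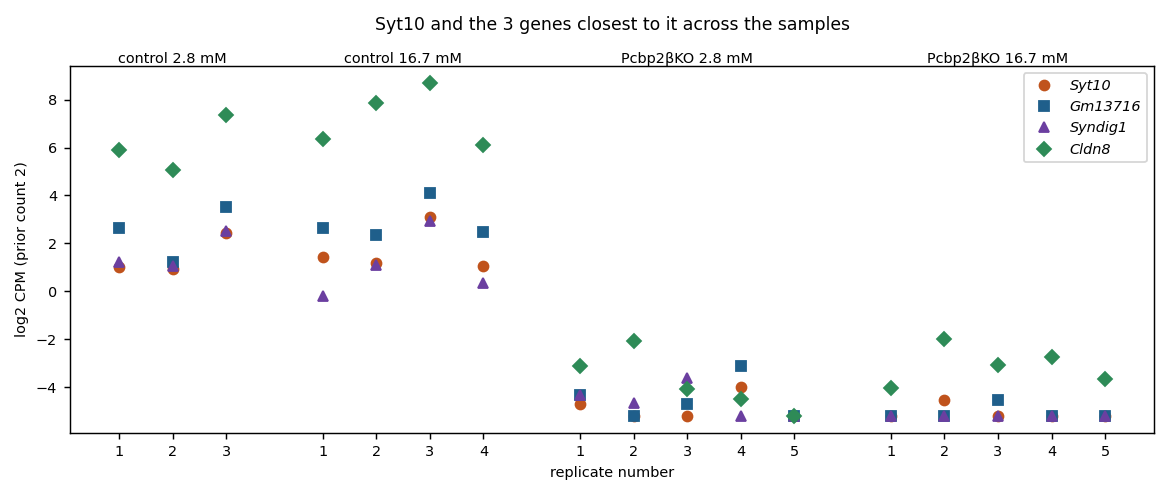
Log2 CPM (prior count 2) of Syt10, Gm13716, Syndig1 and Cldn8 in each of the 17 samples, grouped by genotype and glucose and ordered by replicate number. All 4 genes are lower in every Pcbp2βKO sample than in any control sample, and control replicate 3 is the highest at each glucose concentration. Gm13716, Syndig1 and Cldn8 were picked for closeness to Syt10 over these same samples.

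Syt17, an atypical member without a transmembrane segment that is known from the Golgi and endosomes, was the only one of the 10 whose transcript rose in Pcbp2βKO cells by the thresholds used. In control cells it was measured at 1.03, 1.03 and 0.558 CPM at 2.8 mM and at 1.00, 0.890, 0.353 and 0.601 CPM at 16.7 mM. In Pcbp2βKO cells it was at 1.81, 3.95, 1.98, 1.86 and 1.44 CPM at 2.8 mM. At 16.7 mM the Pcbp2βKO samples held 2.31, 2.14, 1.20, 2.04 and 2.04 CPM. All 10 Pcbp2βKO samples were above all 7 control samples. The log2 fold change was 1.45 (SE 0.36, edgeR adjusted p = 0.046) at 16.7 mM, past the threshold, and 1.34 (SE 0.39, adjusted p = 0.096) at 2.8 mM, which missed it. Syt17 rested on few read pairs, 21.5 to 88.9 per control sample and 78.2 to 337 per Pcbp2βKO sample. In TPM the genotypes overlapped, with 0.4995 to 0.736 TPM in control and 0.348 to 1.06 TPM in Pcbp2βKO samples at 16.7 mM, and limma on log2(TPM + 0.5) gave 0.24 (adjusted p = 0.85). The short transcript Syt17-205, of 362 bases, took 25.0 ± 19.0% of the gene's counts in control cells at 16.7 mM and 6.19 ± 2.36% in Pcbp2βKO cells. The call at 16.7 mM held in 5 of the 17 fits that left out 1 sample, with adjusted p from 0.024 to 0.18, and was lost without the 3 samples that stood apart (1.33, adjusted p = 0.18).

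The genes closest to Syt17 by the same measure were Hddc3, Rgs7bp and Baiap2l2, at 0.298, 0.336 and 0.345 against a median of 1.10. Hddc3 was at 5.17 to 8.60 CPM in control and 8.65 to 21.6 CPM in Pcbp2βKO samples. Rgs7bp and Baiap2l2 did not pass between genotypes at either concentration, with edgeR adjusted p from 0.051 to 0.14. All 3 genes were picked for closeness to Syt17 over these same samples, so this likeness is not a separate result.

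Counts of members in the genotype comparisons were small. At 16.7 mM 2 of 10 passed both thresholds (adjusted p under 0.05 over all genes and a fold over 1.5), 1 higher (Syt17) and 1 lower (Syt10), against 1.71% of all genes (0.29% higher, 1.42% lower). At 2.8 mM 1 of 10 passed, Syt10 with the lower level, against 2.05% of all genes (0.255% higher, 1.79% lower). The median log2 fold change of the 10 was 0.08 at 16.7 mM and 0.02 at 2.8 mM, with 0.01 and 0.03 over all genes. Groups did not overlap for Syt10 and Syt17 at 16.7 mM and for Syt4, Syt10 and Syt17 at 2.8 mM, where 4.49% and 10.9% of all genes did not overlap.

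Syt4 was measured at 171, 241 and 169 CPM in control and at 158, 150, 134, 142 and 128 CPM in Pcbp2βKO cells at 2.8 mM, with no overlap. At 16.7 mM control samples held 218, 266, 335 and 193 CPM and Pcbp2βKO samples 180, 186, 205, 168 and 133 CPM, with overlap in the range of control replicate 4 and Pcbp2βKO replicate 3. The differences, of -0.44 (SE 0.18, edgeR adjusted p = 0.27) and -0.54 (SE 0.16, adjusted p = 0.13) on the log2 scale, did not pass the threshold. Of the 17 fits that left out 1 sample, the difference at 16.7 mM passed in 1. That was the fit without control replicate 4, at -0.66 (edgeR adjusted p = 0.033). Over the 17 fits the adjusted p went up to 0.46. The other 7 members differed by -0.27 to 0.44 at 2.8 mM and by -0.17 to 0.93 at 16.7 mM on the log2 scale, and none of them passed the test. Syt16 had the largest of these values, 0.93 (SE 0.41, adjusted p = 0.36) at 16.7 mM.

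**Figure D4:**
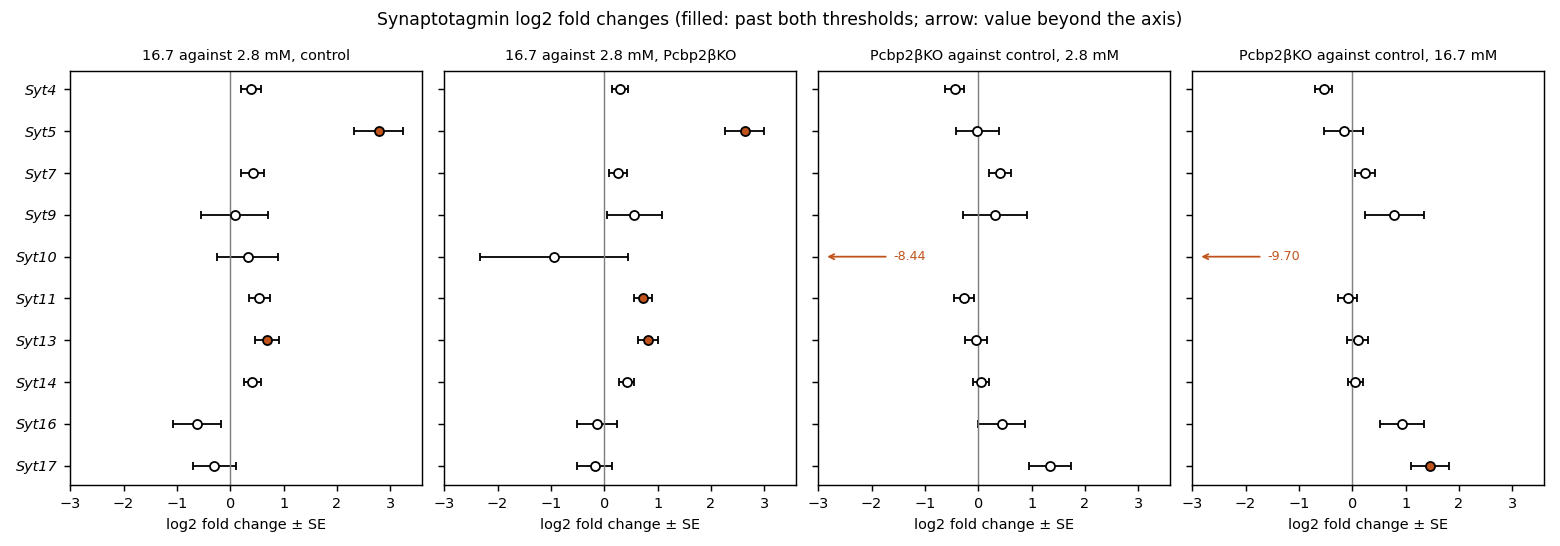
Log2 fold change ± SE of each member in the 2 glucose comparisons (left) and the 2 genotype comparisons (right), with filled points for values past both thresholds and an arrow with its value where Syt10 lies beyond the axis. Syt5 is far to the right in both glucose panels, and Syt17 is to the right in both genotype panels.

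The most C-rich stretches of the 3′ untranslated regions (3′ UTRs) are printed for the members that differed between genotypes or rose with glucose, since the protein removed in Pcbp2βKO cells is known to bind C-rich RNA. For each gene the transcript with most counts was taken from GENCODE vM39, on its own strand, and the window of 18 bases with most C was found, with C in capitals.
Syt10: CaCaCgCgCgCaCagaaC
Syt17: CCaCCatgaCCtCtCCCC
Syt5: tCCCtCtCCCtgCtCCCC
Syt11: CtCCtCCCttCCCCatCC
Syt13: tCaCCCCCCCCCaCCCCC
The Syt10 window (GRCm39 chr15:89666683-89666700, minus strand) held 8 C in a 3′ UTR of 182 bases, and 92.8% of 14555 genes with such a region had a window with at least as many. The annotated Syt10 gene runs on past this window to base 89661213. Sequence outside the 182 bases was not searched, so the Syt10 count holds for this transcript model alone. The Syt17 window (chr7:117980122-117980139, minus strand) held 11 C, which 57.3% of genes reached. The windows of Syt5 (chr7:4543029-4543046, minus strand) and Syt11 (chr3:88652841-88652858, minus strand) held 12 C each, which 38.3% of genes reached. The Syt13 window (chr2:92784912-92784929, plus strand) held 15 C in a 3′ UTR of 6081 bases, which 5.35% of genes reached. The median gene had 11 C in its richest window and a 3′ UTR of 1389 bases, and longer regions offer more windows. These counts describe letters of the reference and are not binding sites.

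High glucose raised Syt5, a calcium-binding member found on dense-core granules, more than any other member in both genotypes. Control samples held 22.2, 23.9 and 20.2 CPM at 2.8 mM and 209, 184, 158 and 56.3 CPM at 16.7 mM. Pcbp2βKO samples held 22.4, 30.6, 22.9, 22.3 and 10.9 CPM at 2.8 mM and 176, 185, 177, 76.4 and 62.6 CPM at 16.7 mM. The groups did not overlap in either genotype, and control replicate 4 and Pcbp2βKO replicates 4 and 5 were the low samples at 16.7 mM. The log2 fold change was 2.78 (SE 0.46, edgeR adjusted p = 0.0011) in control and 2.63 (SE 0.36, adjusted p = 4.9e-05) in Pcbp2βKO cells. Without those 3 samples it was 3.04 and 3.00. In the same 3 samples the summed CPM of 6 proliferation genes was 8.18, 49.4 and 2.18, against 9.64 to 62.2 in the other control samples and 130 to 271 in the other Pcbp2βKO samples at 16.7 mM. The part of this difference in Syt5 was not tested.

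Syt13 also rose with glucose in CPM, though this depended on the scaling. Control samples held 874, 786 and 809 CPM at 2.8 mM and 1601, 1541, 1188 and 947 CPM at 16.7 mM, without overlap. Pcbp2βKO samples held 827, 1108, 696, 705 and 659 CPM at 2.8 mM and 1614, 1840, 1382, 1039 and 1192 CPM at 16.7 mM, with an overlap through replicate 2 at 2.8 mM and replicate 4 at 16.7 mM. The log2 fold change was 0.68 (SE 0.23, edgeR adjusted p = 0.047) in control and 0.82 (SE 0.18, adjusted p = 0.0025) in Pcbp2βKO cells. The call in control cells held in 6 of the 17 fits that left out 1 sample, with adjusted p from 0.012 to 0.15, and the call in Pcbp2βKO cells in all 17. With the replicate number as a block over all samples, the value in control cells was 0.77 (edgeR adjusted p = 0.0011).

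Syt11, a member without calcium binding that is known to restrain endocytosis in neurons, passed in Pcbp2βKO cells. It was at 33.8, 50.2, 34.5, 38.5 and 41.8 CPM at 2.8 mM and 69.6, 78.1, 62.2, 49.9 and 69.9 CPM at 16.7 mM, with replicate 2 at 2.8 mM just above replicate 4 at 16.7 mM. The log2 fold change was 0.73 (SE 0.17, edgeR adjusted p = 0.0029). In control cells Syt11 was at 49.98, 56.9 and 37.0 CPM at 2.8 mM and 73.2, 93.0, 57.4 and 56.5 CPM at 16.7 mM, and the change of 0.55 (SE 0.20, adjusted p = 0.076) missed the threshold. With the replicate block it passed, at 0.61 (adjusted p = 0.0030), as it did without control replicate 4 at 16.7 mM (0.65, adjusted p = 0.034). The latter was the only 1 of the 17 fits with 1 sample left out that called it. Over those fits the edgeR adjusted p went up to 0.27.

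The direction of these smaller glucose responses turned with the scaling. The insulin and amylin transcripts Ins1, Ins2 and Iapp took 34.8 to 39.6% of all TPM in control cells at 2.8 mM and 62.3 to 67.7% at 16.7 mM, and 24.1 to 34.3% against 65.3 to 70.5% in Pcbp2βKO cells. With limma on log2(TPM + 0.5) the median over all genes was -0.71 in control and -0.89 in Pcbp2βKO cells, and with total counts it was -0.35 and -0.47, whereas with TMM it was 0.04 and 0.01. On the TPM scale Syt5 still rose, by 1.78 (adjusted p = 0.0015) and 1.497 (adjusted p = 0.00079). Syt13 was at -0.13 and -0.20 and Syt11 at -0.33 and -0.49 on that scale. Relative to the median over all genes, Syt13 stood at 0.57 and 0.69 and Syt11 at 0.38 and 0.41 in TPM, and at 0.61 and 0.80 and at 0.49 and 0.71 with total counts. Neither Syt13 nor Syt11 passed the test in the higher direction with total counts or TPM. Both genes thus had values above the median of all genes under each of these scalings, and values below 0 in TPM.

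**Figure D5:**
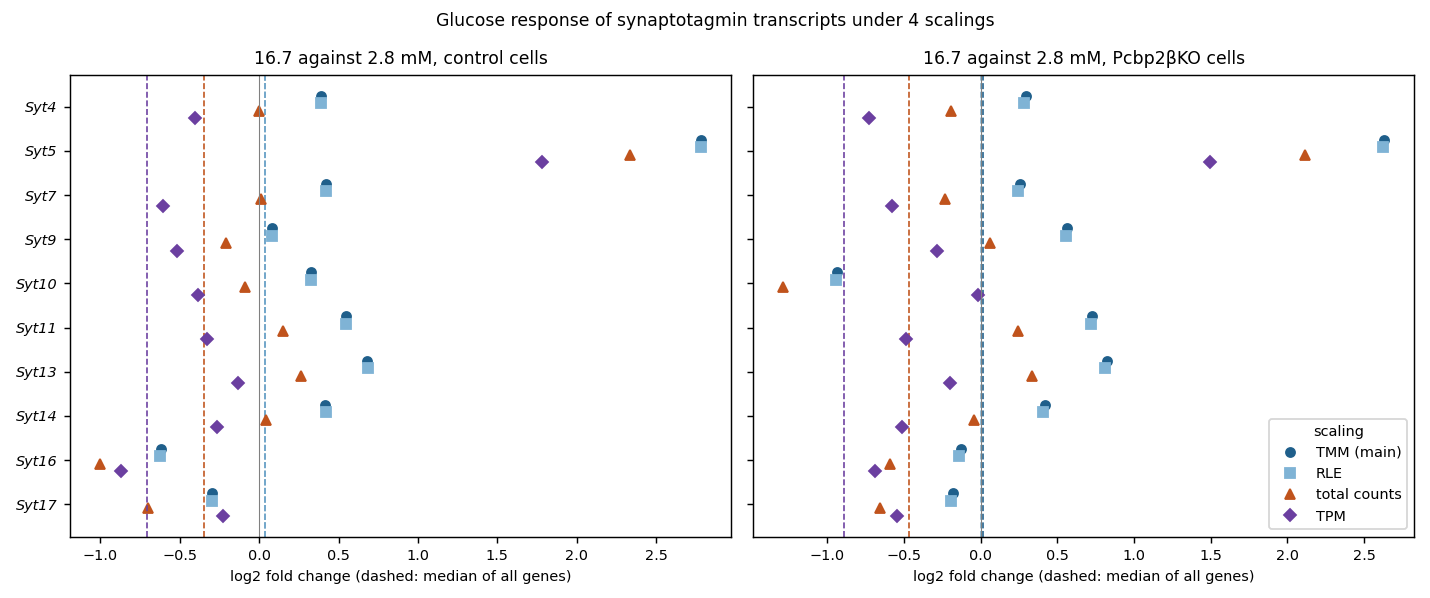
Log2 fold change of each member from 2.8 to 16.7 mM glucose in control (left) and Pcbp2βKO cells (right) under 4 scalings, with dashed lines for the median over all genes under each scaling. Syt5 lies to the right of 0 under all 4, while Syt11 and Syt13 lie left of 0 in TPM but right of the TPM median.

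In the count of members with CPM, 2 of 10 rose with glucose in control cells (Syt5 and Syt13) and none fell, against 13.9% of all genes in either direction, 7.16% higher and 6.7% lower. In Pcbp2βKO cells 3 of 10 rose (Syt5, Syt11 and Syt13) and none fell, against 23.9%, 13.5% higher and 10.5% lower. With the replicate number as a block over all samples, Syt11 was also higher in control cells, 3 of 10, and 21% of all genes were called. That fit also ties control to Pcbp2βKO samples by number. With that block over the control samples alone Syt9 was in addition lower (-0.77, adjusted p = 0.043), 4 of 10, and 28.7% of 19736 genes were called. The median over the 10 was 0.40 in control and 0.36 in Pcbp2βKO cells, with 0.04 and 0.01 over all genes, and 8 and 7 of the 10 values were positive. The groups did not overlap for Syt5, Syt7, Syt13 and Syt14 in control cells and for Syt5 in Pcbp2βKO cells, where 24.1% and 21.7% of all genes did not overlap.

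Among the rest, Syt14 was at 22.2 to 30.0 CPM in control cells at 2.8 mM and 30.9 to 39.7 CPM at 16.7 mM. Its log2 change was 0.42 (SE 0.17, edgeR adjusted p = 0.097) in control and 0.42 (SE 0.14, adjusted p = 0.026) in Pcbp2βKO cells, the latter below the fold of 1.5. Syt7, the calcium sensor of granule fusion, was at 21.7, 20.6 and 19.3 CPM in control cells at 2.8 mM and 35.3, 28.0, 24.3 and 22.3 CPM at 16.7 mM, a change of 0.42 (SE 0.21, adjusted p = 0.19). In TPM it had the opposite sign, -0.61 (adjusted p = 0.0031), and stood 0.10 above the median of all genes on that scale. Syt9, a calcium sensor of dense-core vesicles, varied widely within groups, with a range at 16.7 mM of 1.25 to 8.95 CPM over control and 3.68 to 12.6 CPM over Pcbp2βKO samples. Its glucose response in control cells was 0.08 (SE 0.62, adjusted p = 0.95) and turned to -0.71 without control replicate 4 at 16.7 mM. With the block over the control samples alone it was -0.77 (edgeR adjusted p = 0.043). Control replicate 4 has no partner at 2.8 mM and adds nothing to that contrast, so the 2 negative values are not separate results. Syt16 was at 0.689 to 1.96 CPM in control cells at 16.7 mM and 1.37 to 2.57 CPM at 2.8 mM.

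Whether the response to glucose differed between genotypes was tested as an interaction. None of the 10 members passed, and 1 of 22733 genes did (0.0044%). None of the 10 had an unadjusted p under 0.05 in edgeR, and DESeq2 called 0 as well. The members' differences between the responses ranged from -1.26 (Syt10, SE 1.54) to 0.49 on the log2 scale. For Syt5 the difference was -0.15 with an SE of 0.54.

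Single transcripts carried most of the counts in several members. The files list 1 transcript each for Syt4, Syt10 and Syt13. Syt5-201 held 97.6 ± 0.531% of Syt5 counts in control cells at 2.8 mM, and all 3 tested transcripts of Syt5 passed in both glucose comparisons, where 4.68% of 65504 transcripts passed in control and 13.8% in Pcbp2βKO cells. The main transcripts of Syt7 and Syt14 held 86.7 ± 0.627% and 92.9 ± 0.665% of the counts of their genes in the same cells. In control cells at 2.8 mM Syt16-205 held 53.2 ± 5.99% of Syt16 counts. Syt16-201, an annotated target of nonsense-mediated decay, held 28.5 ± 8.89%. The order of the means was reversed in the other groups. Syt16-201 held 51.95% against 31.5% for Syt16-205 in control cells at 16.7 mM. In Pcbp2βKO cells it held 53.3% against 35.4% at 2.8 mM and 62.2% against 29.4% at 16.7 mM. The ranges of both transcripts over samples overlapped in each of these other groups. By the test per transcript, 7 transcripts of the members passed in at least 1 comparison. Besides the 3 of Syt5 these were Syt10-201 in both genotype comparisons, where 0.504% of transcripts passed at 2.8 mM and 0.392% at 16.7 mM, and Syt11-201, Syt13-201 and Syt17-204 with glucose in Pcbp2βKO cells. Syt17-204 fell by 4.26 on the log2 scale (SE 1.34, edgeR adjusted p = 0.041), while the Syt17 gene total was at -0.18 (adjusted p = 0.73). Estimated counts divide shared read pairs between transcripts, and the uncertainty of that division is not in the test.

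Partners of synaptotagmins in exocytosis were counted in 4 lists, on the TMM scale alone, so glucose responses in these lists are relative to the bulk of genes. Their counts stand against 13.9% of all genes called with glucose in control and 23.9% in Pcbp2βKO cells, and 2.05% and 1.71% called between genotypes at 2.8 and 16.7 mM. Of 6 tested synaptotagmins outside the 10, Syt3 rose with glucose, by 1.36 (SE 0.23, adjusted p = 0.0012) in control and 2.03 (SE 0.19, adjusted p = 2.6e-06) in Pcbp2βKO cells. Of 12 synaptotagmin-like and other tandem C2 genes, Sytl5 rose in control cells and Sytl1, Sytl4 and Sytl5 rose and Sytl2 fell in Pcbp2βKO cells with glucose. Sytl2 was low in these Pcbp2βKO cells, at 0.134 to 1.85 CPM at 2.8 mM and 0.139 to 0.389 CPM at 16.7 mM, with overlap. In this list only Rph3a passed between genotypes. Rph3a, whose product rabphilin binds Rab3 on secretory vesicles, was lower in Pcbp2βKO cells by -5.79 (SE 0.56, adjusted p = 6.6e-06) at 2.8 mM and -4.15 (SE 0.51, adjusted p = 1.1e-04) at 16.7 mM. It was at 1.70 to 8.64 CPM in control and 0.0499 to 0.273 CPM in Pcbp2βKO samples.

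Of 17 tested SNAREs and fusion partners, none passed between genotypes. With glucose, Stx4a and Stxbp3 fell in control cells, and Vamp2, the vesicle SNARE of insulin granules, rose by 0.69 (SE 0.12, adjusted p = 3.8e-04) in Pcbp2βKO cells while Stx3, Stxbp3 and Napb fell. Of 14 priming and docking factors, 6 rose (Unc13a, Unc13b, Rims1, Rab3a, Rab3d and Rab27b) and 1 fell (Rab3b) in control cells. In Pcbp2βKO cells 6 rose (Unc13a, Unc13b, Cadps2, Rims1, Rab3d and Rab27a) and 2 fell (Unc13d and Rab3b). Rims1 and Rab27b rested on few read pairs, at 0.0347 to 0.142 and 0.284 to 0.309 CPM in control cells at 2.8 mM. In Pcbp2βKO cells Rims1 was at 0.0499 to 0.622 CPM at 2.8 mM and 0.0771 to 5.25 CPM at 16.7 mM, with overlap. The median of this list was 0.61 in control and 0.59 in Pcbp2βKO cells, with 0.04 and 0.01 over all genes. The medians of the tandem C2 list were 0.13 and 0.23, and those of the SNARE list -0.16 and -0.02. Rab3c was the only priming and docking factor to pass between genotypes, at -1.98 (SE 0.43, adjusted p = 0.017) in Pcbp2βKO cells at 2.8 mM. At 16.7 mM it did not pass. There it was at 3.37 to 8.99 CPM in control and 1.26 to 2.89 CPM in Pcbp2βKO samples. These ranges did not overlap, as was so for 4.49% of all genes.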

How the data were processed

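Per the labels and the study's methods, the authors pseudoaligned paired reads with kallisto to the mm39 transcriptome (version not given in the sources used here) and tested genes with edgeR. The deposited tables give expected counts (kallisto estimated counts) and TPM, which the authors' tool computed per effective length, for 142376 transcripts in each of 17 samples. Estimated counts were summed per symbol over 54456 symbols, of which 79 join more than 1 gene ID, and rounded. Genes were filtered with filterByExpr (22733 kept), scaled by TMM (factors 0.752 to 1.29) and tested with the quasi-likelihood test of edgeR 4.0.16 in R 4.3.3 on 4 group means. Calls needed a Benjamini-Hochberg adjusted p under 0.05 over all genes and a fold over 1.5. DESeq2 1.42.0 and limma 3.58.1 (pseudocounts of 0.5 and 0.1, mean of at least 0.5 TPM) were alternatives. The batch term of the authors' model could not be used, since the labels give no batch. Read pairs carry no molecular identifiers, so counting intervals (95%) cover counting error only.

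The members and the gene lists were chosen with earlier results of these data known. Named genes were all 10 members, each gene of the 4 exocytosis lists that passed in a comparison, Pcbp2, and the 3 genes closest to each member that passed between genotypes. Deviations from group means were correlated between samples of the same replicate number in different groups. For control cells at both concentrations r was 0.198, 0.124 and 0.259 for the numbers 1 to 3. The highest r, 0.355, was between control and Pcbp2βKO replicate 4 at 16.7 mM. Correlations between samples with different numbers were not examined, so these values cannot show whether the numbers pair samples. Fits with the replicate number as a block are thus given as alternatives only. In every other pair of groups at least 1 number had a correlation at or below 0.1. The main form of the fit with each tool was tested on simulated data. The other scalings and filters, the smaller pseudocount and the fits on part of the samples were not tested in this way. Positions and 3′ UTRs come from GENCODE vM39, whose transcript versions are not those of the files. Protein sequences were not used here.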

Additional observations from a re-analysis of the deposited data

Results flagged for a closer look

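Within groups of 4 or 5 samples, 6 values lay far from the others by Dixon's test at its 95% critical value, in 30 groups tested, where chance flags about 1 in 20 groups. Syt10 was at 8.57 CPM in control replicate 3 at 16.7 mM, with the other 3 samples at 2.04 to 2.64 CPM. Syt10 was at 0.0161 CPM, a single read pair, in Pcbp2βKO replicate 2 at 16.7 mM, with the other 4 at 0. With 4 zeros any value above 0 is marked by this test, so this one carries no information and only 5 of the 6 can be set against the chance rate. Syt14 was at 46.5 CPM in Pcbp2βKO replicate 5 at 16.7 mM, with the others at 32.4 to 36.3 CPM. Syt16 was at 4.88 CPM and Syt17 at 3.95 CPM in Pcbp2βKO replicate 2 at 2.8 mM, with the others at 1.44 to 2.31 and 1.44 to 1.98 CPM. Syt17 was at 1.20 CPM in Pcbp2βKO replicate 3 at 16.7 mM, with the others at 2.04 to 2.31 CPM.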

How the results depend on the processing

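The rise of Syt5 with glucose in both genotypes and the fall of Syt10 in both genotype comparisons passed in all 17 fits that left out 1 sample, as did the rises of Syt11 and Syt13 with glucose in Pcbp2βKO cells. The calls of Syt13 with glucose in control cells and of Syt17 at 16.7 mM did not. Of 680 values with 1 sample left out (40 member changes), 633 kept their direction and their side of the threshold, as did 375 of 449 values under the other alternatives, but most of the 40 changes were not called to begin with. Of 226 values for the changes that were called, 185 did, 35 no longer passed and 6 turned direction. No interaction was called for a member under any alternative that was run. Few read pairs limit Syt10, Syt16 and Syt17.

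The number of members called for glucose in control cells, 2, was 1 with total counts and 1 with only the groups compared, and ranged from 1 to 3 with 1 sample left out. For Pcbp2βKO against control at 16.7 mM, 2 became 1 with RLE size factors, with TPM at either pseudocount, with length-scaled TPM, with protein-coding transcripts only, with only the groups compared and without the 3 samples that stood apart, and it ranged from 1 to 2 with 1 sample left out. The call lost was that of Syt17, with edgeR adjusted p = 0.050 under RLE and 0.067 with protein-coding transcripts. For the same comparison at 2.8 mM, 1 became 2 with DESeq2 and 2 with the replicate block, by the addition of Syt17, and stayed at 1 with 1 sample left out. For glucose in Pcbp2βKO cells, 3 became 1 with total counts, and stayed at 3 with 1 sample left out.

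With the replicate number as a block over all samples, glucose in control cells gave 2.90 for Syt5, 0.61 for Syt11 and 0.77 for Syt13 on the log2 scale, all past the thresholds. The block over control samples alone, chosen after seeing the data, gave 4 calls, with Syt9 at -0.77. Control replicate 4 adds nothing to the contrast in that fit. Under the block over all samples Syt9 was at -0.44. In the genotype comparisons, where the numbers were likewise not shown to pair samples, the block gave 0.060 for Syt5 at 16.7 mM. At 2.8 mM it gave 0.43 for Syt5, 0.11 for Syt13 and 1.44 (edgeR adjusted p = 0.023) for Syt17.

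These directions turned, and the cause was not tested beyond the shift of the median given above. For glucose in control cells, total counts gave -0.0031 for Syt4, -0.21 for Syt9 and -0.089 for Syt10. TPM with pseudocounts of 0.5 and 0.1 gave -0.40 and -0.41 for Syt4, -0.61 and -0.64 for Syt7, -0.52 and -0.87 for Syt9, -0.38 and -0.51 for Syt10, -0.33 and -0.34 for Syt11, -0.13 and -0.13 for Syt13, and -0.27 and -0.30 for Syt14. Syt17 was at 0.41 with length-scaled TPM, and Syt9 at -0.75 without the 3 samples that stood apart. For glucose in Pcbp2βKO cells, total counts gave -0.19 for Syt4, -0.23 for Syt7 and -0.045 for Syt14. TPM with the same pseudocounts gave -0.73 and -0.74 for Syt4, -0.58 and -0.61 for Syt7, -0.28 and -0.34 for Syt9, -0.49 and -0.50 for Syt11, -0.20 and -0.20 for Syt13, and -0.51 and -0.58 for Syt14. Syt17 was at 0.16 with length-scaled TPM.

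Between genotypes at 16.7 mM, Syt14 was at -0.11 and -0.13 in TPM and -0.034 with length-scaled TPM. At 2.8 mM, Syt5 was at 0.10 with total counts, 0.050 and 0.047 in TPM and 0.013 with protein-coding transcripts, and Syt13 at 0.070 with total counts and 0.074 and 0.074 in TPM. Syt7 was at -0.0055 with length-scaled TPM and Syt16 at -0.23 with protein-coding transcripts.

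With 1 sample left out, values turned for glucose in control cells in Syt9 (-0.71 to 0.42) and Syt10 (-0.42 to 1.01), and for glucose in Pcbp2βKO cells in Syt10 (-2.41 to 0.082), Syt16 (-0.34 to 0.25) and Syt17 (-0.30 to 0.13). Between genotypes at 16.7 mM they turned in Syt5 (-0.45 to 0.026), Syt11 (-0.19 to 0.080), Syt13 (-0.045 to 0.21) and Syt14 (-0.047 to 0.10). At 2.8 mM they turned in Syt5 (-0.17 to 0.15), Syt9 (-0.078 to 0.64), Syt13 (-0.19 to 0.018) and Syt14 (-0.056 to 0.15). None of these was called with all samples.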
